A study of Mus musculus with 24 samples.

Results

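Heterozygous spermatocytes were set against wild-type spermatocytes, gene by gene, in mice of the Ago413 line. The comparison used 7 of the 24 bulk RNA-seq libraries of the series, 3 heterozygous (Ago413+/-) and 4 wild-type (Ago413+/+), chosen by genotype, cell fraction and the labels alone. The labels mark a further heterozygous and a further wild-type spermatocyte library as outliers, and both were left out. Of 55536 genes in the count table, 18812 reached 10 counts in 3 or more of the 7 libraries and were tested.

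Ago413 mice lack a stretch of chromosome 4 that holds all of Ago1 and pieces of its neighbours Ago3 and Ago4. It was engineered with MICER vectors in 129 embryonic stem cells, acts in the whole body because Sox2-cre made the recombination, and was later backcrossed to C57BL/6J. All groups, the wild type included, came from crosses of heterozygous parents, and the males were 10 to 15 weeks old. Spermatocytes at the pachytene and diplotene stages were enriched by sedimentation through an albumin gradient from the pooled testes of several males, so each library is 1 cell preparation made from more than 1 animal. Null (Ago413-/-) spermatocytes, 3 libraries, entered the same fit and are given beside the heterozygous values where they help to place them. Because the fraction was enriched and not sorted, fewer cells of a type and less RNA per cell cannot be told apart in any value below.

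Argonaute proteins bind small RNAs and use them to find target transcripts. In the male germ line AGO3 and AGO4 are also found in the nucleus of meiotic cells, at the sex body, the domain in which the X and Y chromosomes are silenced while the autosomes stay active. A spermatocyte enters meiosis under retinoic acid and STRA8, passes through leptotene, zygotene, pachytene and diplotene, divides, and becomes a round spermatid that builds the acrosome and the tail. A heterozygote keeps 1 intact copy of the Argonaute cluster, so the comparison asks what loss of the other copy does to this sequence of gene programmes.

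Depth ran from 12825105 to 29749058 counts in the 7 libraries, and 2 of them stood apart within their groups. Wild-type replicate 5 correlated with the other 3 wild-type libraries at a mean r of 0.968 across genes (log2 CPM, counts per 1000000 after TMM scaling), against 0.979 to 0.983 among those 3, and with the heterozygous libraries at 0.973. Heterozygous replicate 3 correlated with the other heterozygous libraries at 0.944, against 0.962 and 0.970 for those. Numbers in the library names also separated the groups, since heterozygous libraries were 2, 18 and 24 and wild-type libraries 30, 36, 42 and 78. The labels do not say what that number stands for, and in the 7 libraries its part cannot be told apart from genotype. The left-out heterozygous library was 66, above wild-type libraries 30, 36 and 42, and the left-out wild-type library was 72. Many list counts and medians below are given with and without these libraries.

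The targeted genes were looked at first. Ago1 (ENSMUSG00000041530, chromosome 4, 126435012 to 126468583 in mm10) stood at 3.53, 4.24 and 1.85 CPM in heterozygous replicates 1 to 3. In wild-type replicates 1, 2, 4 and 5 it stood at 3.15, 3.19, 4.48 and 3.27 CPM. The groups overlapped, with 3.21 ± 1.23 CPM (SD, n = 3) against 3.52 ± 0.643 CPM (SD, n = 4). The log2 fold change was -0.13, with an SE of 0.34 and an adjusted p of 0.845 by edgeR, and it turned positive (0.10) without heterozygous replicate 3. All 3 null libraries held 0 counts of Ago1. The other targeted genes lay on opposite sides of the wild type.

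Ago3 (ENSMUSG00000028842, chromosome 4, 126331704 to 126429556) was at 41.4, 46.2 and 13.4 CPM in the heterozygous libraries and at 6.39, 6.07, 11.9 and 5.34 CPM in the wild-type libraries. Every heterozygous value lay above every wild-type value. The log2 fold change was 2.18 (SE 0.41), with an adjusted p of 0.125 by edgeR and 0.000381 by DESeq2, so that the call depended on the tool. Ago3 was higher still in null spermatocytes, at 41.6, 94.3 and 77.2 CPM, and a count summed over the gene cannot tell the remaining exons from deleted ones. The fourth family member, Ago4 (ENSMUSG00000042500, chromosome 4, 126489541 to 126533472) was at 21.3, 20.4 and 8.87 CPM against 39.3, 28.6, 49.2 and 18.3 CPM. Only wild-type replicate 5 fell within the heterozygous range, and the log2 fold change of -1.002 (SE 0.36) did not pass with either tool (adjusted p = 0.138 by edgeR and 0.0566 by DESeq2). Ago2, which lies on chromosome 15 and was not targeted, was at 9.44, 6.32 and 2.90 CPM against 10.2, 5.91, 15.1 and 5.00 CPM, and its groups overlapped throughout (adjusted p = 0.457 by edgeR).

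Across all genes, edgeR called 5 as higher in heterozygous spermatocytes (0.0266% of those tested) at an adjusted p below 0.05 with a log2 fold change beyond 0.5 in size. None was called lower (0%), although 1662 genes with a lower value had an unadjusted p under 0.05, as did 2962 with a higher value, and DESeq2 called 548 lower. Adjusted p-values were nearly flat beyond the first few genes. 7 genes were under 0.1 and 1617 were under 0.13. DESeq2 at the same thresholds called 711 genes higher (3.78%) and 548 lower (2.91%), and all 5 edgeR calls were among them. Each of these 1259 genes kept its direction in edgeR. Log2 fold changes and SEs below are from edgeR unless stated, also where only the adjusted p of DESeq2 is given. Apart from the 5 edgeR calls, no gene named below passed with edgeR in the full comparison of heterozygous with wild-type libraries. No overlap between the groups was found for 1479 genes that were higher in every heterozygous library (7.86%) and for 1755 that were lower (9.33%).

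The number of edgeR calls turned on wild-type replicate 5. Without it 2101 genes were called higher (11.2%) and 887 lower (4.72%), and DESeq2 then called 2874 (15.3%) and 1512 (8.04%). Leaving out heterozygous replicate 3 gave 19 edgeR calls, all higher, and DESeq2 then called 688 genes higher (3.66%) and 535 lower (2.84%). Counts of list members given below without either library are to be read against these shares. DESeq2 counts of list members in the full comparison are to be read against 3.78% higher and 2.91% lower. The median log2 fold change over all tested genes was 0.07 in the full comparison and 0.06 without wild-type replicate 5, so changes below are read against a centre near 0.

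**Figure D1:**
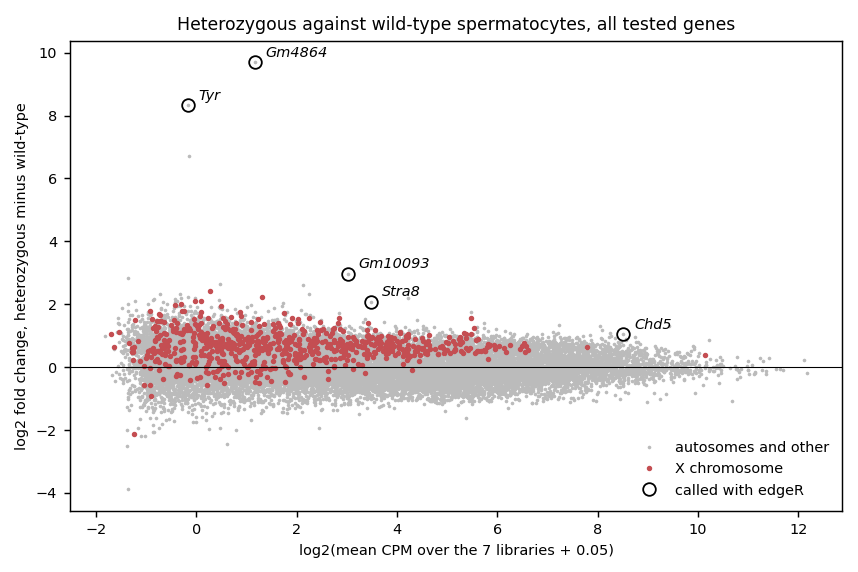
Log2 fold change of each tested gene, heterozygous minus wild-type spermatocytes (vertical axis), against its mean level over the 7 libraries (horizontal axis, log2 of CPM plus 0.05), with X-linked genes in red and the 5 genes called by edgeR circled. The called genes are all higher, and most red points lie above 0.

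Among the 5 called genes were 2 processed pseudogenes of Hdac1, which encodes a class I histone deacetylase. Gm4864 (ENSMUSG00000112003, chromosome 12, 77623549 to 77625009) held 5.19, 5.78 and 4.35 CPM in the heterozygous libraries and 0 counts in each of the 4 wild-type libraries. Heterozygous libraries were thus at least 21.9-fold higher, taking the 3 counts that a count of 0 allows in the shallowest wild-type library (0.233 CPM) as the floor (edgeR adjusted p = 7.35e-05). Gm10093 (ENSMUSG00000061062, chromosome 17, 78491582 to 78493025) stood at 16.2, 14.4 and 17.5 CPM against 1.83, 1.95, 2.85 and 1.56 CPM. The difference was 2.97 on the log2 scale, with an SE of 0.24 and an edgeR adjusted p of 7.35e-05. Both pseudogenes separated the genotypes without overlap in every library, wild-type replicate 5 and heterozygous replicate 3 included. Null spermatocytes held 7.31, 7.72 and 9.22 CPM of Gm4864 and 26.5, 32.3 and 30.0 CPM of Gm10093, above all heterozygous values.

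Reads of these pseudogenes are hard to tell from reads of Hdac1, and the sequences show why each needs care. Of the 31-base words of Gm10093, 86.1% occur in Hdac1 transcripts, and of those of Gm4864, 25.8%. The first 3 lines below give the 90 coding bases of Hdac1 exon 3 in which both pseudogenes are closest to the parent, and the next 3 the 90 coding bases of exon 5 in which Gm10093 differs most among the windows compared. Capitals mark bases that differ from Hdac1, and all are written 5′ to 3′ on the strand of the gene (mm10, GENCODE M21).
Hdac1, chr4:129528955-129529044, minus strand: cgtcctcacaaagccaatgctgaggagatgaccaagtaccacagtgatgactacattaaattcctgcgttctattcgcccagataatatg
Gm10093, chr17:78491744-78491833, plus strand: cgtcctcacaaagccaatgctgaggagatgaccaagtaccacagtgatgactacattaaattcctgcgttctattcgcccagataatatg
Gm4864, chr12:77624758-77624847, minus strand: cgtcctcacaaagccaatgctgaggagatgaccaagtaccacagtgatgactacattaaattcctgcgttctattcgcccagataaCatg
Hdac1, chr4:129522972-129523061, minus strand: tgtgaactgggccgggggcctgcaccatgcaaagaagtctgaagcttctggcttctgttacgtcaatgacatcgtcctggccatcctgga
Gm10093, chr17:78491977-78492066, plus strand: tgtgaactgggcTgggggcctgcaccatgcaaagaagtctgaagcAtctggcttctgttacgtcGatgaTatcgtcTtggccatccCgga
Gm4864, chr12:77624525-77624614, minus strand: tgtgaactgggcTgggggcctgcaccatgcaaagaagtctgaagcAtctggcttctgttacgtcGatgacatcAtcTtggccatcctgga
In the first window Gm10093 differs from Hdac1 at 0 bases and Gm4864 at 1. In the second window Gm10093 differs at 6 and Gm4864 at 5, and 4 of those differences are the same base at the same place in both pseudogenes. Within these windows, a stretch with no capital in either pseudogene is the same in all 3 genes.

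Hdac1 itself (ENSMUSG00000028800, chromosome 4, 129516104 to 129542713) lay in the other direction. It was at 230, 229 and 239 CPM in heterozygous libraries and at 297, 297, 308 and 301 CPM in wild-type libraries, a difference of many times the spread within either group. The log2 fold change of -0.37 stayed under the fold threshold of 0.5 (SE 0.13, adjusted p = 0.137 by edgeR and 0.0482 by DESeq2). Summed over Hdac1, Gm10093 and Gm4864, the level was 251, 249 and 261 CPM against 299, 299, 311 and 303 CPM. The sum was lower in every heterozygous library too. Reads that fit more than 1 of these genes may be counted for none of them, and their part in the result was not tested.

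Tyr (ENSMUSG00000004651, chromosome 7, 87424771 to 87493512), which encodes the tyrosinase of melanin synthesis, was the other called gene with 0 counts in all wild-type libraries. It was at 2.25, 2.86 and 0.754 CPM in heterozygous spermatocytes, at least 8.38-fold higher by the same floor (edgeR adjusted p = 0.0103). Null libraries were at 2.94, 4.37 and 4.75 CPM. Tyr and Gm4864 met the filter on low counts only through the heterozygous libraries in which they were high, so their p-values are given as a description and not as support.

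**Figure D2:**
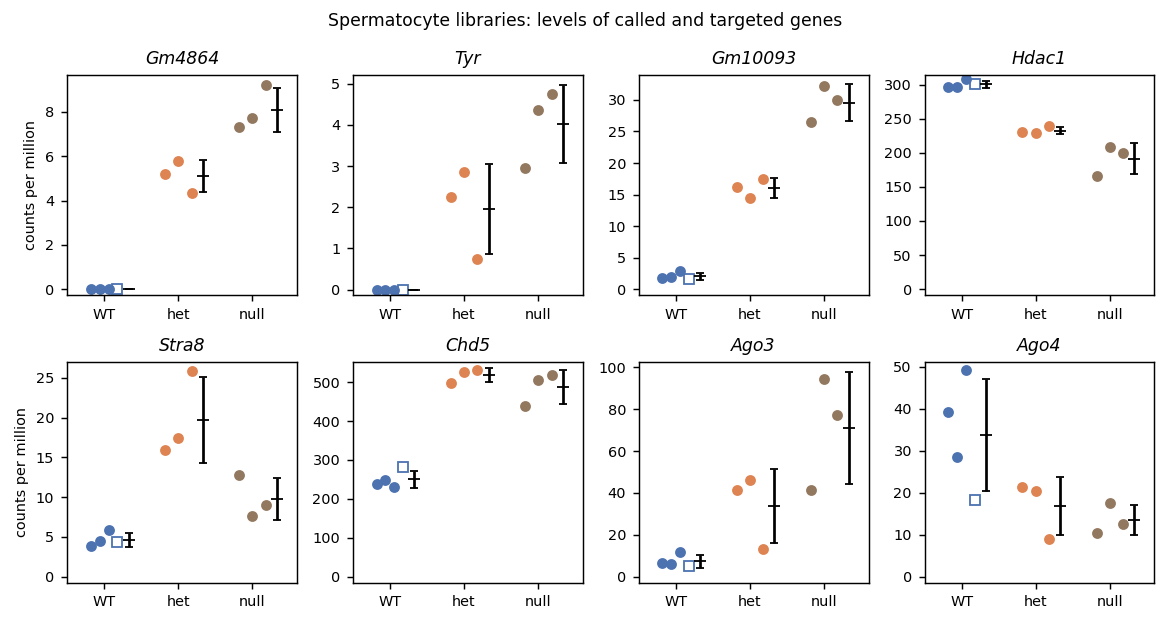
Level of 8 genes in each spermatocyte library (vertical axes, CPM, starting just below 0) by genotype, with an open square for wild-type replicate 5 and the mean ± SD at the right of each group. Gm4864, Tyr, Gm10093, Stra8, Chd5 and Ago3 are higher and Hdac1 is lower in every heterozygous library, and only Ago4 overlaps.

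The remaining called genes were Stra8 and Chd5. Stra8 (ENSMUSG00000029848, chromosome 6, 34920163 to 34939344), the retinoic acid responsive gene that starts the meiotic programme and is normally on before the pachytene stage, was at 15.9, 17.4 and 25.9 CPM in heterozygous libraries. In wild-type libraries it was at 3.86, 4.43, 5.91 and 4.35 CPM. The groups were apart by 2.09 on the log2 scale (SE 0.27), an edgeR adjusted p of 0.00959. Null spermatocytes lay between the groups, at 12.7, 7.56 and 8.99 CPM, and heterozygous and null libraries were not called different (log2 fold change of null minus heterozygous -1.01, edgeR adjusted p = 0.979). Gm4969 (ENSMUSG00000085601, chromosome 7), also known as Meiosin and the partner of STRA8, was at 10.5, 10.9 and 4.41 CPM against 1.12, 1.32, 2.75 and 1.70 CPM. It did not pass with edgeR (log2 fold change 2.31, SE 0.38, adjusted p = 0.0952) and passed with DESeq2 (adjusted p = 1.03e-05).

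Chd5 (ENSMUSG00000005045, chromosome 4, 152338651 to 152390194), a chromodomain remodeler of the germ line that takes part in the exchange of histones for protamines, was at 499, 527 and 532 CPM. Wild-type libraries were at 239, 249, 231 and 281 CPM. This was the most abundant called gene and the one with the smallest relative spread, and it was 1.05 higher on the log2 scale (SE 0.13, adjusted p of 0.00959 by edgeR). Null spermatocytes were at 438, 507 and 520 CPM, of which the first lay below the heterozygous range and all lay above the wild type. Of the 9 genes of its family tested, 2 passed with DESeq2, Chd5 and Chd6, and the median log2 fold change was -0.16, which turned to 0.10 without heterozygous replicate 3. Chd6 was at 9.95, 11.6 and 8.87 CPM against 4.06, 5.21, 6.37 and 5.34 CPM (log2 fold change 0.95, DESeq2 adjusted p = 0.0111), while the abundant Chd4 overlapped, at 186 to 335 CPM against 233 to 399 CPM.

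The 2 spermatocyte libraries that the labels call outliers chose none of these genes, and they were set beside them. The left-out heterozygous library held 5.45 CPM of Gm4864, 0.731 CPM of Tyr and 16.02 CPM of Gm10093, where the left-out wild-type library held 0, 0 and 1.78 CPM. These 3 genes thus kept the order of the genotypes in both libraries. Stra8 did not, with 4.78 CPM in the left-out heterozygous and 10.5 CPM in the left-out wild-type library. Chd5 was at 705 and 746 CPM, above every library of the comparison in both. With those libraries added back, Stra8 and Chd5 lost their edgeR calls (log2 fold changes of 1.48 and 0.71) and the 3 other genes kept theirs.

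Beyond the edgeR calls, a set of 16 protein-coding genes was taken by size from those with a mean of at least 5 CPM, no overlap between the groups, a DESeq2 call and a log2 fold change beyond 0.5 in both tools. In all, 296 genes higher and 396 lower met these terms, and the 8 at each end are given here. Ago3 and Stra8 led the higher end. Hs3st4, a heparan sulfate sulfotransferase, was at 11.01, 11.3 and 26.8 CPM against 4.77, 3.27, 4.58 and 9.69 CPM (log2 fold change 1.53, SE 0.39). Clec4a2, a C-type lectin receptor, was at 14.9, 13.6 and 34.3 CPM against 5.99, 6.61, 5.45 and 12.6 CPM (1.44, SE 0.35). In both genes heterozygous replicate 3 was the highest library of its group and wild-type replicate 5 the highest of the other.

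The X-linked Tsc22d3, a glucocorticoid-induced leucine zipper gene, differed with less spread, at 10.1, 13.2 and 9.10 CPM against 3.86, 4.20, 4.07 and 4.35 CPM (log2 fold change 1.39, SE 0.27). The X-linked ribosomal protein gene Rpl36a was at 4.04, 7.95 and 13.9 CPM against 2.94, 3.35, 3.46 and 2.92 CPM (1.44, SE 0.40). The uncharacterized 4931409K22Rik, the most abundant of the 8, was at 176, 182 and 332 CPM against 69.8, 72.8, 66.01 and 158 CPM (1.33, SE 0.32). Mcam, a cell adhesion molecule of the immunoglobulin family, was at 6.50, 11.8 and 4.58 CPM against 2.69, 2.10, 4.28 and 3.10 CPM (1.32, SE 0.38). Their adjusted p-values ran from 0.000845 to 0.0288 by DESeq2 for the 6 genes other than Ago3 and Stra8 and were 0.125 by edgeR.

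The lower end held regulators and genes of varied function. Pou5f2, a POU domain transcription factor of male germ cells, was at 37.8, 56.3 and 27.1 CPM against 113, 110, 103 and 71.4 CPM (log2 fold change -1.30, SE 0.34). Sap30, a subunit of the SIN3 deacetylase complex, was at 15.3, 14.9 and 10.6 CPM against 36.4, 33.4, 35.96 and 16.9 CPM (-1.17, SE 0.31). Gem, a small GTP-binding protein, was at 6.89, 10.96 and 6.26 CPM against 20.4, 20.5, 18.6 and 16.3 CPM (-1.24, SE 0.32). Wild-type replicate 5 was the lowest wild-type library for all of these and lay nearest to the heterozygous range. Samd7 (-1.48), Adh4 (-1.24), Tmem35b (-1.21), Susd5 (-1.21) and 2610001J05Rik (-1.17, all log2 fold changes) completed the 8, at wild-type means of 8.47 to 17.3 CPM. All 8 passed with DESeq2 (adjusted p from 0.00491 to 0.0368) and none with edgeR (0.125 to 0.127). All 8 were also lower in the left-out heterozygous than in the left-out wild-type library, whereas only 4 of the 8 at the higher end were higher there.

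That pair of left-out libraries was also read for whole classes of genes. Of all tested genes, 43.6% were higher in the left-out heterozygous library and 56.4% lower. Among the 711 genes that DESeq2 called higher the share was 74.1% higher, and among the 548 it called lower it was 94.2% lower. Of the 699 X-linked genes, 391 (55.9%) were higher in the left-out heterozygous library. With 1 library on each side this is a description of those libraries.

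Stage was read from lists of marker genes, which the study had derived from single wild-type germ cells, covering spermatogonia (Spg), leptotene and zygotene (Lep/Zy), pachytene (Pachy) and diplotene to second division (Dip/M1/M2) spermatocytes, late round spermatids (RS2) and elongating spermatids (ES). No gene of any of these lists passed with edgeR. Markers of the later meiotic stages were lower. Of 96 Dip/M1/M2 genes, 31 were lower with DESeq2 and none higher, and the median log2 fold change was -0.39. Of 91 Pachy genes, 19 were lower and none higher, with a median of -0.76.

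The Dip/M1/M2 and Pachy lists differed in how far they rested on single libraries. Summed over the list, Dip/M1/M2 genes held 9922, 10214 and 10775 CPM in the heterozygous libraries and 13704, 14599, 13309 and 13355 CPM in the wild type. Every heterozygous library lay below every wild-type library, wild-type replicate 5 included, and 57 of the 96 genes (59.4%) were lower without overlap, where 9.33% of all genes were. Pachy genes held 4576, 4065 and 2314 CPM against 7272, 5090, 8904 and 3737 CPM, where wild-type replicate 5 lay within the heterozygous range. Without that library the medians were -0.94 for Pachy and -0.44 for Dip/M1/M2, and DESeq2 called 55 and 38 genes of those lists. Without heterozygous replicate 3 the medians were -0.56 and -0.55, and DESeq2 called 2 and 41 genes, so that most of the Pachy calls rested on that library.

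**Figure D3:**
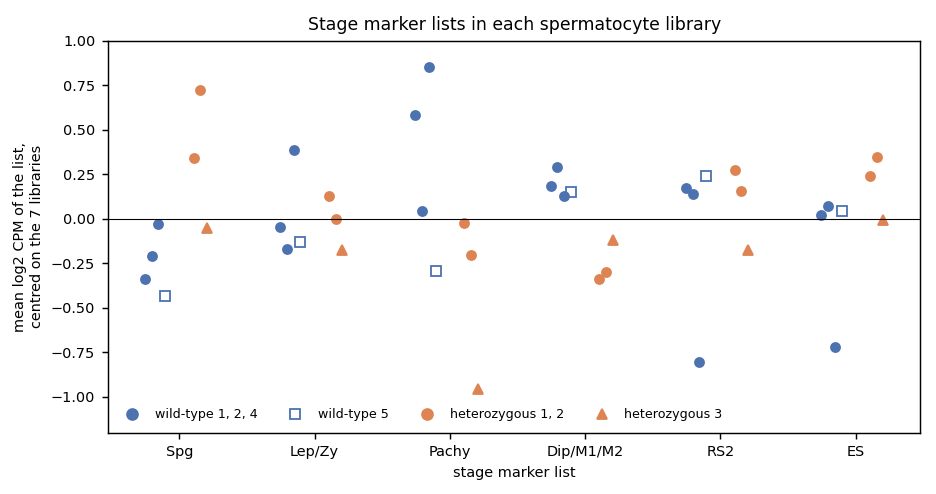
Mean log2 CPM of each stage marker list in the 7 libraries (vertical axis, centred on their mean), with wild-type libraries in blue, heterozygous libraries in orange, wild-type replicate 5 as open squares and heterozygous replicate 3 as triangles. Of the lists drawn, only Dip/M1/M2 has groups without overlap, and wild-type replicate 5 lies among the heterozygous libraries for Pachy.

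Named members of both lists are given next. Cdk1, the kinase of the division phase, was at 22.2, 28.7 and 26.8 CPM against 51.5, 61.5, 47.0 and 40.6 CPM (log2 fold change -0.95, SE 0.21, adjusted p = 0.125 by edgeR and 0.00485 by DESeq2). Nubp2, which takes part in iron-sulfur cluster assembly, was at 139, 152 and 139 CPM against 287, 273, 249 and 225 CPM (-0.85, SE 0.19). Pabpc6, a testis poly(A) binding protein and the most abundant Dip/M1/M2 gene, was at 411, 427 and 328 CPM against 636, 729, 750 and 639 CPM (-0.82, SE 0.20), while Tprn, the next, overlapped. Among Pachy genes, Ube2t was at 31.03, 25.9 and 22.95 CPM against 67.9, 47.9, 74.7 and 34.4 CPM (-1.08, SE 0.28). Tcam1, a testis adhesion gene, was at 138, 149 and 59.8 CPM against 267, 233, 290 and 159 CPM (-1.04, SE 0.33). Piwil1, the PIWI protein of pachytene piRNAs, was most abundant of the Pachy genes and varied most, at 334, 226 and 99.2 CPM against 577, 312, 688 and 191 CPM (-1.01, SE 0.48, DESeq2 adjusted p = 0.127).

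Spermatid markers were next. Of 64 RS2 genes 1 passed with DESeq2 and the median was 0.11, and the abundant Prm1 and Tnp2, for chromatin packing proteins of the sperm head, had log2 fold changes of 0.09 and 0.00. Of 63 ES genes none passed with DESeq2 or edgeR, 16 (25.4%) were higher without overlap where 7.86% of all genes were, and the median was 0.35. Without wild-type replicate 5, 7 of them were higher with DESeq2. The ES gene Iqcf5 was at 108 to 264 CPM against 59.6 to 113 CPM, with overlap through wild-type replicate 5, and Prm2 and the X-linked Akap4, the most abundant, overlapped between the groups.

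Part of the spermatogonial markers passed as higher with DESeq2 and none with edgeR, and leptotene and zygotene markers had DESeq2 calls on both sides. Of 96 Spg genes, 24 were higher with DESeq2 and none lower, the median was 0.57, and 33 (34.4%) were higher without overlap. Summed, they held 1733, 2161 and 1420 CPM against 1215, 1266, 1495 and 1139 CPM, so that heterozygous replicate 3 fell below wild-type replicate 4. The left-out libraries had the other order, at 1400 CPM in the heterozygous and 1876 CPM in the wild-type one. Cenpa, the centromeric histone, was at 4.72, 9.82 and 7.65 CPM against 2.28, 1.63, 2.44 and 2.79 CPM (log2 fold change 1.67, SE 0.31, adjusted p = 0.125 by edgeR and 0.000381 by DESeq2). The X-linked Map7d2, a microtubule-associated protein, was at 5.44, 7.996 and 9.27 CPM against 2.18, 2.49, 2.70 and 2.89 CPM (1.55, SE 0.31). Neither of the most abundant Spg genes, the chaperone Hspa8 (0.22) and the ribosome assembly factor Mdn1 (-0.01, log2 fold changes), differed beyond its spread. Of 93 Lep/Zy genes 4 were higher and 3 lower with DESeq2 (6 and 7 without wild-type replicate 5), with a median of -0.06. The protease gene Prss50 was at 8.16, 11.6 and 6.38 CPM against 2.99, 1.95, 6.11 and 3.03 CPM, without overlap.

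**Figure D4:**
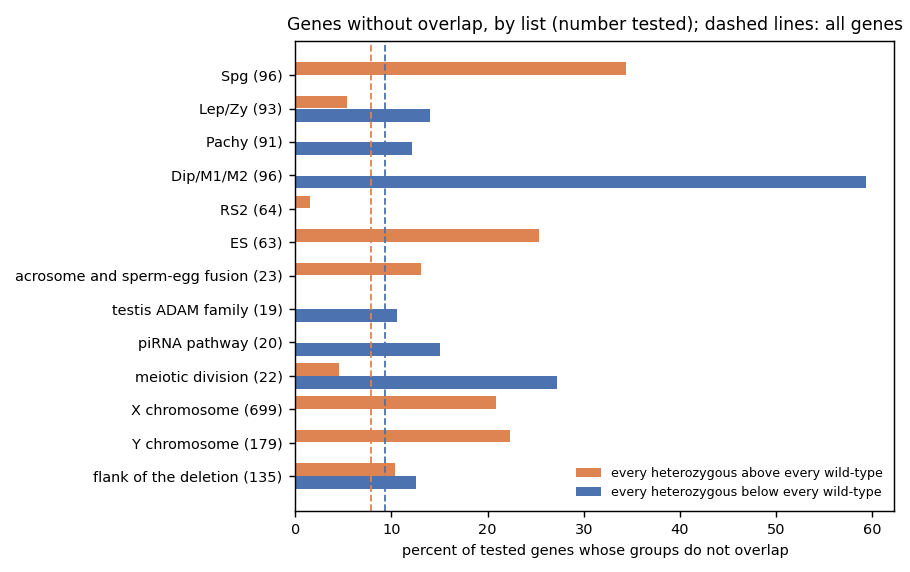
Percent of the tested genes of each list (number in brackets) that were higher (orange) or lower (blue) in every heterozygous library than in every wild-type library, with dashed lines at the shares over all tested genes (7.86% and 9.33%). Dip/M1/M2 genes reach 59.4% on the lower side and Spg genes 34.4% on the higher side.

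Genes of meiotic functions were read from lists by role. Of the 13 tested genes for meiotic entry and retinoic acid, 4 were higher and none lower with DESeq2 and the median log2 fold change was 0.44. The abundant members did not follow Stra8. Meioc, which holds germ cells in the meiotic programme, was at 67.0 to 90.4 CPM against 93.1 to 165 CPM, and Dazl, an RNA-binding protein of germ cells, overlapped. Of 14 genes for the synaptonemal complex, which joins homologous chromosomes, and for meiotic cohesin, 1 was higher and 2 lower. Rec8, a meiotic cohesin subunit, was at 165, 165 and 202 CPM against 83.2, 103, 79.2 and 145 CPM (0.79, SE 0.20, adjusted p = 0.125 by edgeR and 0.0265 by DESeq2). Sycp3, of the lateral element, was at 85.8, 59.3 and 77.1 CPM against 141, 114, 213 and 94.6 CPM (-0.93, SE 0.26, adjusted p = 0.125 by edgeR and 0.0307 by DESeq2). The most abundant of this list, Stag3 (-0.22) and Syce1 (-0.20), did not pass.

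Of 26 recombination genes, 2 were higher and 3 lower with DESeq2, and 3 and 7 without wild-type replicate 5, where 15.3% and 8.04% of all genes were called. Prdm9, which sets the sites of meiotic breaks at an early stage, was at 3.40, 3.50 and 1.62 CPM against 0.659, 0.389, 1.48 and 0.612 CPM (log2 fold change 1.84, SE 0.43, DESeq2 adjusted p = 0.0115). The X-linked Tex11 was at 14.3, 18.8 and 13.5 CPM against 4.26, 6.77, 8.51 and 7.75 CPM (1.18, SE 0.29). Cntd1, needed for the last steps of crossing over, was lower at 53.1 to 81.2 CPM against 98.0 to 146 CPM (-0.69, SE 0.22), and Psmc3ip overlapped. For the 22 genes of the sex body and the DNA damage response the median was -0.50, yet 3 passed as higher and none as lower with DESeq2, and 4 and 8 without wild-type replicate 5. Scml2, an X-linked Polycomb-like gene of the sex body, was at 19.9, 23.8 and 19.7 CPM against 8.12, 11.7, 10.4 and 13.98 CPM (0.93, SE 0.22). Atm, a kinase of the damage response, was at 4.06 to 11.7 CPM against 2.96 to 4.89 CPM, so that its lowest heterozygous library overlapped. The abundant Trim28, a corepressor, was at 351 to 445 CPM against 453 to 585 CPM, and it did not pass with either tool.

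Of 22 genes of meiotic division, 1 was higher and 3 lower with DESeq2 (2 and 6 without wild-type replicate 5), with a median of -0.34. Aurka, a spindle kinase, was at 186, 188 and 236 CPM against 313, 363, 282 and 289 CPM (log2 fold change -0.62, SE 0.17, DESeq2 adjusted p = 0.0309). The cyclin gene Ccna2 was the one higher member, at 7.99, 11.6 and 10.7 CPM against 4.92, 5.29, 5.14 and 5.85 CPM (0.93, SE 0.24). Eif4g3, a translation factor needed for exit from prophase and the most abundant of the list, overlapped (0.08). Of 37 genes that regulate the cell cycle in meiosis, 4 were higher and 5 lower with DESeq2 (5 and 10 without wild-type replicate 5), with a median of -0.24. Among 17 transcription regulators of pachytene cells and spermatids, 1 was higher and 2 lower with DESeq2, where 3.78% and 2.91% of all genes were. Taf7l, an X-linked TFIID subunit, was the higher one, at 50.9, 55.8 and 71.1 CPM against 22.1, 24.4, 26.5 and 41.02 CPM (1.05, SE 0.23), and Kctd19, the most abundant, was at 365 to 538 CPM against 551 to 647 CPM.

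Genes of small RNA pathways were then read. Of 20 piRNA pathway genes 2 were lower (10%) and none higher with DESeq2, where 2.91% and 3.78% of all genes were. The median was -0.28. Without wild-type replicate 5, 8 were lower, where 8.04% of all genes were. Without heterozygous replicate 3 none was called, and the median was -0.29. Henmt1, which methylates piRNA ends, was at 41.3, 36.3 and 32.5 CPM against 63.5, 57.3, 57.0 and 47.3 CPM (log2 fold change -0.62, SE 0.19, DESeq2 adjusted p = 0.0322). Pld6, an endonuclease of piRNA processing, was at 34.7 to 61.0 CPM against 63.8 to 112 CPM. The abundant Mael (-0.19) and Tdrd6 (-0.21) did not pass. Of 19 microRNA pathway genes 1 was higher and 1 lower, where 3.78% and 2.91% of all genes were, and the median of -0.34 was -0.12 without heterozygous replicate 3. Tarbp2, the partner of Dicer, was at 165, 167 and 148 CPM against 258, 245, 232 and 219 CPM (-0.57, SE 0.16, DESeq2 adjusted p = 0.0298). Tnrc6b, a GW182 protein bound by Argonautes, was at 29.5, 29.6 and 22.9 CPM against 17.6, 16.5, 17.98 and 17.9 CPM (0.64, SE 0.17, DESeq2 adjusted p = 0.0113), and Cnot1 of the deadenylase complex overlapped.

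Genes of sperm building were next. Of 23 genes for the acrosome and sperm-egg fusion, 5 were higher and none lower with DESeq2, and the median log2 fold change was 0.70. Without heterozygous replicate 3 it was 1 gene and a median of 0.37, and without wild-type replicate 5 it was 14 higher and 1 lower and a median of 0.95. Dcst1, a sperm membrane protein, was at 128, 122 and 137 CPM against 60.8, 65.04, 62.9 and 106 CPM (0.81, SE 0.20, DESeq2 adjusted p = 0.0206). Zp3r, the acrosomal protein SP56, was at 218, 211 and 322 CPM against 117, 131, 125 and 213 CPM (0.77, SE 0.22, DESeq2 adjusted p = 0.0411). Only wild-type replicate 5 reached the heterozygous range of Zp3r. Acrv1, another acrosomal gene whose protein the study stained, was at 230, 206 and 378 CPM against 125, 150, 125 and 252 CPM (0.73, SE 0.26, DESeq2 adjusted p = 0.0860). Adam4, the third stained protein, was at 32.4, 32.5 and 33.8 CPM against 25.0, 30.2, 19.1 and 33.2 CPM (0.29, SE 0.20). The most abundant acrosomal genes Crisp2 (0.03) and Zpbp2 (-0.15) did not pass.

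Among 19 ADAM genes of the testis, none passed with edgeR or DESeq2 and the median was 0.46. Adam26a was at 100 to 168 CPM against 50.4 to 108 CPM and Adam24 at 154 to 187 CPM against 82.7 to 164 CPM, with overlap through wild-type replicate 5 alone, while the abundant Adam5 (-0.08) and Adam3 (-0.07) lay at the wild-type level. Without wild-type replicate 5, 11 of the 19 passed as higher with DESeq2, as did 15.3% of all genes. Of 16 serine kinase and calcium signalling genes of sperm, 4 were higher and none lower (median 0.51), with none called without heterozygous replicate 3 (0.34) and 7 without wild-type replicate 5. Catsper4 was at 202, 186 and 302 CPM against 101, 102.3, 101 and 184 CPM (log2 fold change 0.92, SE 0.23) and Catsper1 at 155, 164 and 184 CPM against 81.2, 71.4, 80.4 and 146 CPM (0.82, SE 0.22). Both encode pore proteins of the sperm calcium channel. Of 12 genes of the outer dense fibres and fibrous sheath 1 passed (median 0.48), against 5 without wild-type replicate 5, and Akap3 was at 935, 946 and 847 CPM against 596, 633, 557 and 817 CPM. Odf2, the most abundant, was at 4784, 4958 and 4698 CPM against 4206, 4120, 3512 and 4568 CPM (0.23, SE 0.13), without overlap, and Ropn1l overlapped. Axonemal genes (23 tested, median 0.01) and protamines with transition proteins (10 tested, median 0.27) had 2 DESeq2 calls between them, 1 in each direction and both axonemal. Spag6, an axonemal protein, was at 336, 334 and 402 CPM against 182, 193, 191 and 316 CPM (0.70, SE 0.19). Wild-type replicate 5 was the nearest wild-type library, and the groups did not overlap.

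Most X-linked genes had positive log2 fold changes. Of 699 X-linked genes, 83 were higher and none lower with DESeq2 (11.9%), 146 were higher and none lower without overlap (20.9%), and 644 (92.1%) had a positive value. Of all tested genes, 3.78% were called higher with DESeq2 and 7.86% were higher without overlap. DESeq2 called 282 X-linked genes higher without wild-type replicate 5 and 97 without heterozygous replicate 3. No X-linked gene passed with edgeR in the full comparison, although in each of the 3 heterozygous libraries of the comparison the X chromosome took a larger share of all counts than in any of its 4 wild-type libraries. The share was 0.919%, 0.917% and 0.949% in heterozygous libraries and 0.557%, 0.623%, 0.503% and 0.785% in wild-type libraries. Wild-type replicate 5 was the nearest. The left-out wild-type library held 0.983%, above all 3 of these heterozygous libraries, and the left-out heterozygous library 1.14%. The median log2 fold change was 0.67 for the X chromosome and 0.04 for autosomal genes, a shift of 0.63. It was 0.78 without wild-type replicate 5, 0.50 without heterozygous replicate 3, and 0.54 with the left-out libraries added back. Null libraries held 1.19%, 0.837% and 0.863%, around the heterozygous share.

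Stage markers on the X chromosome were then set aside. The 676 X-linked genes outside the stage lists had the same median of 0.67, with 72 higher and none lower by DESeq2. Medians of the 19 autosomes ran from -0.01 on chromosome 11 to 0.11 on chromosome 14. Among X-linked genes, those with an autosomal retrogene are of interest because the retrogene takes over when the X is silent. All 8 such X-linked parents had a positive value, 3 were higher with DESeq2, and the median was 0.74. Cstf2, a polyadenylation factor, was at 72.1, 78.04 and 61.3 CPM against 41.1, 45.3, 33.8 and 59.2 CPM (0.65, SE 0.19, DESeq2 adjusted p = 0.0368). Its autosomal retrogene Cstf2t was at 36.6, 34.7 and 25.0 CPM against 59.6, 50.2, 66.2 and 38.3 CPM (-0.74, SE 0.24, DESeq2 adjusted p = 0.0437). Utp14a was at 13.8, 12.2 and 20.2 CPM against 5.68, 6.61, 7.49 and 12.1 CPM (0.94, SE 0.28), and Rpl39 at 3.83, 5.78 and 7.07 CPM against 1.88, 2.49, 2.90 and 1.36 CPM (1.37, SE 0.38). The 8 autosomal retrogenes together had a median of 0.05, which turned to -0.34 without heterozygous replicate 3, and the abundant Pgk2 overlapped.

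**Figure D5:**
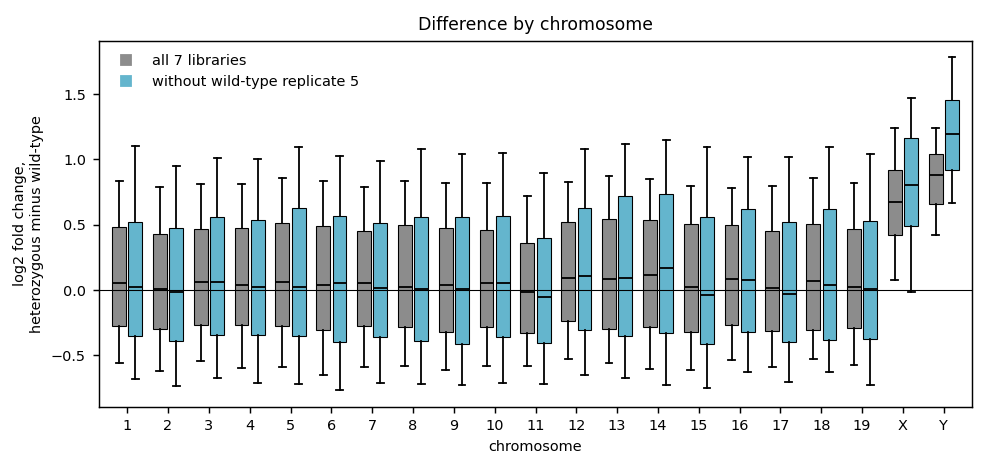
Log2 fold changes of tested genes by chromosome, heterozygous minus wild-type (box, middle 50% of genes; line, median; whiskers, 10th to 90th percentile), for all 7 libraries (grey) and without wild-type replicate 5 (blue). Medians of autosomes lie between -0.01 and 0.11 in the full comparison, and the X and Y chromosomes stand above them at 0.67 and 0.88.

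Of 179 Y-linked genes, most of which belong to families of near-identical copies whose reads are uncertain, 15 were higher and none lower with DESeq2, with a median of 0.88. Without heterozygous replicate 3 it was 5 genes and a median of 0.41, and without wild-type replicate 5 it was 87 genes and a median of 1.20. Of the 8 single-copy genes 1 passed and the median was 0.78, against 3 and 5 genes without those libraries. Eif2s3y, a translation initiation factor subunit, was at 60.7, 54.5 and 117 CPM against 29.7, 32.5, 33.7 and 55.1 CPM (log2 fold change 1.03, SE 0.28, DESeq2 adjusted p = 0.0301). Uba1y was at 10.9 to 28.1 CPM against 10.9 to 12.9 CPM. Kdm5d, a histone demethylase, was at 1.66, 1.73 and 0.927 CPM against 0.558, 0.389, 0.764 and 0.612 CPM. Wild-type replicate 5 met the lowest heterozygous library in Eif2s3y, and heterozygous replicate 3 met the wild-type range in Uba1y.

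The 5 Mb on either side of the Argonaute cluster were looked at for effects near the deletion. Of 135 genes tested there, 1 was higher (0.741%) and 7 lower (5.19%) with DESeq2, where 3.78% and 2.91% of all genes were. The median was -0.01. Without overlap, 10.4% were higher and 12.6% lower, where 7.86% and 9.33% of all genes were. The higher one was Phc2, a subunit of Polycomb repressive complex 1, at 53.6, 55.0 and 72.8 CPM against 33.9, 35.0, 32.9 and 30.7 CPM (log2 fold change 0.87, SE 0.16, adjusted p = 0.125 by edgeR and 0.000488 by DESeq2). Null libraries were at 68.7, 72.9 and 70.6 CPM, above the wild type as well. Among the 17 tested genes of that complex 2 were higher and 1 lower, with Pcgf2 as the other higher one, at 1.62 to 3.19 CPM against 0.700 to 1.17 CPM, and the abundant Phc1 overlapped.

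Markers of other cells of the testis were read as a check of purity. Of 10 Sertoli cell markers none passed, and their sum ranged from 128 to 649 CPM in heterozygous and from 225 to 575 CPM in wild-type libraries, lowest in heterozygous replicate 3. The 7 tested Leydig cell markers summed to 16.2, 31.6 and 8.17 CPM against 13.3, 4.51, 3.72 and 9.42 CPM, and 2 passed as higher with DESeq2. These were the steroid enzymes Cyp11a1, at 2.64, 6.37 and 2.03 CPM against 1.01, 0.622, 0.204 and 1.73 CPM, and Cyp17a1, at 4.51, 9.92 and 2.20 CPM against 3.45, 0.856, 0.713 and 1.84 CPM. Star overlapped. Tested markers of peritubular myoid cells (4 genes), macrophages (4), endothelium (3) and erythrocytes (1) summed to at most 18.6 CPM in any of the 7 libraries, none passed with either tool, and the globin genes Hba-a1 and Hba-a2 were at 0 throughout. Leydig markers, Sertoli markers and Spg genes were all highest in heterozygous replicate 2. In the wild type the order differed, with Spg genes highest and Leydig markers lowest in wild-type replicate 4. The part of somatic cells in the Spg result was not tested.

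Genes for ribosomes and respiration set heterozygous replicate 3 apart from all other libraries. Cytosolic ribosomal protein genes (84 tested, 2 higher and 1 lower with DESeq2) summed to 24534 CPM in that library and to 11028 to 16047 CPM in all others, null included. Their median of 0.12 turned to -0.32 without it. Respiratory chain genes (80 tested, 2 lower, and 17 lower without heterozygous replicate 3) did likewise, with 12609 CPM against 6562 to 9149 CPM and a median of 0.05 that turned to -0.35. Proteasome genes had 1 call in each direction among 40 (median -0.03), p53 targets 1 lower among 12 (-0.08, and 0.09 without heterozygous replicate 3), clustered histones 2 higher and 1 lower among 22 (0.09) and class I histone deacetylases 1 higher among 4, which was Gm10093. The sum of those 4 genes, of which Hdac1 took most, was 319 to 349 CPM against 380 to 411 CPM, lower in every heterozygous library. Heat shock genes (14 tested), immediate early genes (8) and mitochondrially encoded genes (10) had no call with edgeR or DESeq2. By biotype, DESeq2 called 567 protein-coding genes higher and 474 lower of 14265 tested, and 56 and 32 of 1705 lincRNAs. It called 26 and 16 of 1020 antisense genes, and 13 and 7 of 545 processed pseudogenes. Over all tested genes the shares were 3.78% higher and 2.91% lower.

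Heterozygous spermatocytes were then placed against null spermatocytes of the same fit. With edgeR 1 of 18812 genes was called (0.00532%), Ago1, which was at least 20.8-fold lower in the null libraries, taking 3 counts in the library where these weigh most as the floor. An unadjusted p under 0.05 was found for 658 genes, and DESeq2 called 4 (0.0213%). Besides Ago1 these were Guca2b, Ttc22 and Cd24a (DESeq2 adjusted p = 0.000800, 0.00172 and 0.00336), none of which passed with edgeR. Guca2b was at 1.02, 0.740 and 4.17 CPM in heterozygous libraries and at 0 in the null. Ttc22 was at 3.78, 0.839 and 3.01 CPM against 0.305, 0.154 and 0.138 CPM in the null. Cd24a was at 3.91, 5.82 and 5.45 CPM and in the null higher, at 11.3, 10.96 and 11.2 CPM. Median log2 fold changes of null minus heterozygous were -0.11 for the X chromosome, -0.07 for Pachy, 0.03 for Dip/M1/M2 and -0.40 for Spg genes. The few calls at this spread do not show that heterozygous and null cells are alike in other genes.

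The heterozygous effect was also set beside that in round spermatids, 4 heterozygous against 3 wild-type libraries. With edgeR 0 of 20404 genes (0%) were called different in their effect between the fractions. An unadjusted p under 0.05 was found for 1576, and DESeq2 called 0. Round spermatid and spermatocyte libraries of 1 genotype often carry adjacent numbers, such as 1 and 2, 17 and 18, or 29 and 30. The labels do not say whether such pairs share a preparation, and the fit treated all libraries as independent. The pseudogenes and Tyr marked the genotype in round spermatids too. Gm4864 was at 3.70 ± 0.841 CPM (SD, n = 4) in heterozygous round spermatids with 0 counts in the wild type, Tyr at 1.13 ± 0.364 CPM with 0 counts in the wild type, and Gm10093 at 12.6 ± 1.17 CPM against 1.63 ± 0.152 CPM (SD, n = 3). Stra8 was at 10.6 ± 4.25 CPM against 8.47 ± 0.985 CPM in round spermatids, and the difference between its effects there and in spermatocytes was 1.70 (log2, SE 0.42, unadjusted p = 0.00052 and adjusted p = 0.637 by edgeR). For Chd5, at 724 ± 175 CPM against 633 ± 38.3 CPM in round spermatids, that difference was 0.80 (SE 0.22, adjusted p = 0.637 by edgeR). In round spermatids the median log2 fold change was 0.22 for the X chromosome and -0.28 for Dip/M1/M2 genes.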

How the data were processed

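The authors enriched spermatocytes from the pooled testes of several mice, made directional poly(A) libraries, and deposited raw read counts per gene. The submitters' processing notes name Trim Galore, STAR and mm10, and their versions and the strand setting are not given in the sources used here. Genotypes came from the labels. Genes with at least 10 counts in 3 or more libraries of the comparison entered an edgeR (4.0.16, R 4.3.3) quasi-likelihood fit of 10 spermatocyte libraries with TMM scaling, the null libraries sharing the estimate of spread. Genes were called at a Benjamini-Hochberg adjusted p below 0.05 with a log2 fold change beyond 0.5 in size. DESeq2 (1.42.0) was the alternative tool. The scripts were tested on simulated data. Depth of the 7 libraries ran from 12825105 to 29749058 counts, and intervals and floors cover counting error only.

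Gene lists and named genes were chosen with earlier results of these data known. The libraries were chosen by genotype, cell fraction and the labels, also with those results known. Named were the Argonaute genes, all edgeR calls, the 8 largest DESeq2 calls in each direction under the terms given above, for the lists described gene by gene the 2 most abundant members and the 2 with the smallest p, and the genes whose proteins the study stained. No pair of libraries within a group agreed within sampling noise, with a chi-square per gene of 9.90 to 116 over 9 pairs. Nothing in the labels says that equal replicate numbers mark a shared mouse or day. Since a library is a pool, p-values measure the spread between preparations. Some items are not reported here.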

Additional observations from a re-analysis of the deposited data

Results flagged for a closer look

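Among the 99 named genes and the chromosome shares, 13 had a wild-type library whose gap to its nearest neighbour took up most of the range of the 4 wild-type values (Dixon's ratio above 0.829). Chance flags about 1 in 20 groups.

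In 10 of these the library was wild-type replicate 5. It was the highest wild-type library for Clec4a2 (12.6 CPM), 4931409K22Rik (158 CPM), Spag6 (316 CPM), Dcst1 (106 CPM), Zp3r (213 CPM), Catsper4 (184 CPM), Catsper1 (146 CPM) and Eif2s3y (55.1 CPM). It was the lowest for Sap30 (16.9 CPM). The share of counts from the Y chromosome was 0.0495% in it and 0.0259% to 0.0290% in the other wild-type libraries. In all of these measures it lay toward the heterozygous values.

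In the other 3 the library was wild-type replicate 4, the highest for Ago1 (4.48 CPM) and Ago3 (11.9 CPM) and the lowest for Tprn (429 CPM).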

How the results depend on the processing

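The count of edgeR calls, 5 in the full comparison, was the result that depended most on the processing. It was 2 in a fit of the 7 libraries alone, 3 with the left-out libraries added back and 1481 (841 higher, 640 lower) with no filter on low counts, and DESeq2 gave 1259, or 805 (259 higher, 546 lower) on the 7 libraries alone. After the data were seen, DESeq2 was also run without wild-type replicate 5 (4386 calls) and without heterozygous replicate 3 (1223). Leaving out 1 library at a time gave 2 to 2988 calls with edgeR, the highest without wild-type replicate 5, the lowest without wild-type replicate 1, 3 without wild-type replicate 2 and 19 without heterozygous replicate 3. A replicate block on the numbers of the labels gave 2. Deviations of same-numbered libraries correlated at 0.204 and 0.195 in the only 2 pairs. Libraries with different numbers ran from -0.394 to 0.465, so 2 pairs cannot show whether equal numbers mark anything shared. Gm4864 and Gm10093 passed under each alternative run. Tyr was not tested under the filter at 50 counts, and did not pass in the fits of 7 libraries with either tool, under the block or without wild-type replicate 1. Stra8 and Chd5 did not pass in the edgeR fit of 7 libraries, with the left-out libraries, under the block, or without wild-type replicate 1 or 2.

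Null against heterozygous gave 1 call with edgeR, 30 with no filter and 1 to 2 without 1 library. DESeq2 gave 4 calls, 51 without heterozygous replicate 3 and 10 without wild-type replicate 5. The X chromosome shift ran from 0.50 to 0.78. Some log2 fold changes near 0 changed sign. Under the block Ago1 was 0.28, Mdn1 0.14, Psmc3ip -0.11, Crisp2 -0.023, Adam3 0.091 and Ropn1l -0.20. With DESeq2 and no heterozygous replicate 3, Ago1 was 0.11, Mdn1 0.36, Psmc3ip -0.29, Crisp2 -0.19 and Ropn1l -0.34, and with no wild-type replicate 5, Adam3 was 0.018. With no filter Tnp2 was -0.056 and Crisp2 -0.034, on the 7 libraries alone Tnp2 was -0.027 (DESeq2) and -0.040 and Crisp2 -0.017 (edgeR), and with DESeq2 or its size factors Tnp2 was -0.0052. A filter at 50 counts put Mdn1 at 0.021, and the left-out libraries put Adam5 at 0.0034 and Adam3 at 0.037. Without 1 library, Ago1 ranged from -0.38 to 0.10, Hspa8 from -0.045 to 0.42, Mdn1 from -0.47 to 0.34, Prm1 from -0.092 to 0.20, Tnp2 from -0.17 to 0.11, Psmc3ip from -0.31 to 0.26, Eif4g3 from -0.028 to 0.20, Crisp2 from -0.20 to 0.12, Adam3 from -0.14 to 0.023, Ropn1l from -0.36 to 0.43 and Phc1 from -0.030 to 0.20. The cause of these moves was not tested. The median of peritubular myoid markers could not be formed at 50 counts.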
